A study of Mus musculus with 8 samples.

Results

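The Wnt pathway genes of the array were examined in mouse embryos at E9.5, in the pSHF (posterior second heart field), a mesenchyme dorsal to the looping heart from which progenitors of the atrial septum move in. Wnt ligands (Wnt genes), their receptors and coreceptors (Fzd genes, Lrp5, Lrp6, Ror1 and Ror2), secreted inhibitors (Sfrp and Dkk genes and Wif1) and 5 genes that act inside the cell (Ctnnb1, Axin1, Axin2, Lef1 and Tcf7) were taken by gene name, with every probe that carried such a name. The names gave 47 genes on 67 probes and 85 spots, of 27827 gene names, 41174 probes and 43379 spots in all. There were 19 ligands, 14 receptors or coreceptors, 9 secreted inhibitors and 5 genes of the cell interior.

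The question of the design was how loss of 1 allele of Tbx5, a T-box transcription factor required for atrial septation, alters RNA levels in this tissue. Cy3-labelled cRNA from 4 Tbx5-/+ and 4 wild-type samples was measured on 1-colour Agilent whole mouse genome arrays. All embryos were taken at E9.5 from hormone-treated dams of a Tbx5 colony on a mixed background, and each sample was a pool of RNA whose number of embryos was not stated in the sources used here. Both groups carry the embryo numbers 1, 5, 6 and 7 in the labels, and the arrays lay on 2 slides, 1 with numbers 1 and 5 and the other with numbers 6 and 7. The tissue was cut out by hand after the neural tube had been removed through the foregut, and the methods state that attached foregut was kept and that the heart was left out.

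Wnt proteins are secreted lipid-modified signals that bind Frizzled receptors. With the coreceptors Lrp5 and Lrp6 this protects beta-catenin, the product of Ctnnb1, from a destruction complex built on Axin, and beta-catenin then acts with Lef1 and Tcf proteins on target genes. Other Wnt signals use Ror receptors or the planar polarity pathway and do not need beta-catenin. In the second heart field, Wnt signals are known to act on progenitor growth, and Wnt2 is a mesenchymal ligand of the inflow region and of the early lung field.

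The sequences on which the leading differences rest are shown first. Each probe has 60 bases, of which the 30 nearest the 5′ end are given, and the positions of the whole probes are those of the files on mm9. Dkk2, Wnt11 and Fzd2 had probes whose groups did not overlap, Fzd4 and Lef1 had some of the lowest differences, and Wnt2 stood apart on single arrays. For Lef1 the probe nearer the 5′ end is given first, and its positions span more than its own length, so that it crosses at least 1 intron.
Dkk2, chr3:131842357-131842416, plus strand: tcagagtgatgatgtcatcagaagtttata
Wnt11, chr7:106001985-106002045, plus strand: gaaactgataggattaaaaataacctggca
Fzd2, chr11:102469045-102469104, plus strand: cgtgacattctatatcataagatattgata
Fzd4, chr7:96557478-96557537, plus strand: acacacgtaaggtatccagtggatttctct
Lef1, chr3:130907851-130926012, plus strand: gtacaggtcccagaatgacagctgcctaca
Lef1, chr3:130927036-130927095, plus strand: atctgtttttattagccgattagtgggaat
Wnt2, chr6:17939284-17939343, minus strand: aaagagtaagcaagggctttaactaagtga

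The bases before the gene starts were read from RefSeq on GRCm38.p6, where 32 of the 47 genes had 40 starts listed. In each window of 250 bases a T-box core, AGGTGT or ACACCT on the other strand, and a TCF/LEF core, CTTTGA or TCAAAG on the other strand, were searched. The T-box letters were present in 4 of 40 member windows (10%) and in 11.8% of 32851 windows of all genes. The TCF/LEF letters were present in 6 of 40 member windows (15%) and in 13.8% of all windows. The 4 genes with T-box letters were Lef1, Ror1, Wnt2b and Wnt5b, and the 6 with TCF/LEF letters were Dkk1, Fzd1, Lef1, Ror1, Wnt11 and Wnt5b. Windows are printed for Wnt11, Wnt5b and Dkk2, which read lower in Tbx5-/+ samples, with matches in capitals, and the Dkk2 window held neither set of letters. The match of Wnt11 lay 50 bases before the start shown, and the window of its other listed start held neither set of letters. In Wnt5b the TCF/LEF letters lay 71 bases and the T-box letters 44 bases before the start shown, 1 of 3 listed for that gene.
Wnt11, chr7:98834862-98835111, plus strand: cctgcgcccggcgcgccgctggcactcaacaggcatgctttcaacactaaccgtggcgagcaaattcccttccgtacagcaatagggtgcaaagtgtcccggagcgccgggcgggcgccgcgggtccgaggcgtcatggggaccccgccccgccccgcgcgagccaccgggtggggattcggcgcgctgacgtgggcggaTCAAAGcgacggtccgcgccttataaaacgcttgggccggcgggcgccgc
Wnt5b, chr6:119449387-119449636, minus strand: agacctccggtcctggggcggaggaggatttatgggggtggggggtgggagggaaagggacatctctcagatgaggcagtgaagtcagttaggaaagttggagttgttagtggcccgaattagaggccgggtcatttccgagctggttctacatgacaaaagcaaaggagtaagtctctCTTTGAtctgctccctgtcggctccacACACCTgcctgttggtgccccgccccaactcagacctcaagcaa
Dkk2, chr3:132085042-132085291, plus strand: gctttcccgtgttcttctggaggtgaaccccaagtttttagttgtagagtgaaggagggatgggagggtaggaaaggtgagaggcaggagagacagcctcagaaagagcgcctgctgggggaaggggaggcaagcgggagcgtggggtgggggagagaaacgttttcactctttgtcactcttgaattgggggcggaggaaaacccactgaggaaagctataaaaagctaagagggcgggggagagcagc

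Levels are background-subtracted signals after variance stabilizing normalization (VSN), on a log2 scale, and a level of 1 probe cannot be set against that of another. Between 45% and 52.8% of spots were well above background on Tbx5-/+ arrays and between 50.9% and 63.6% on wild-type arrays. The array medians were also lower in Tbx5-/+ samples, with means of 9.69 against 10.01 (exact permutation test, two-sided, p = 0.0286, the smallest that 4 against 4 arrays allow). Over all 20031 probes tested the median difference, Tbx5-/+ minus wild-type, was −0.19, and differences are therefore also read against that value. Tbx5-/+ 1 lay with the wild-type arrays on the first principal component, and values without that array are given beside the members whose call changed when it was left out. The targeted gene was read by a pair of probes, and the sources used here do not state whether either lies in the deleted part. A Tbx5 probe was at 9.01, 9.73, 9.16 and 8.62 in Tbx5-/+ and at 11.47, 11.56, 10.42 and 11.54 in wild-type samples, whereas the other Tbx5 probe differed by −0.15 ± 0.32 (SE). All 12 pSHF mesenchyme markers on the array were tested, and 9 were well above background on all 8 arrays. The 11 cardiomyocyte markers and 6 of 10 neural tube markers were also well above background on every array, although the dissection was meant to leave both tissues out. In such bulk tissue, fewer cells of a type and less RNA per cell cannot be told apart.

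No Wnt pathway gene passed the test, and the 14 probes with the most evidence of a difference were all lower in Tbx5-/+ samples. A probe was tested if 1 group or both had it well above background on each of 4 arrays, which held for 47 of the 67 probes and 33 of the 47 genes. The other 20 probes comprised all probes of 14 genes and 1 more probe each of Fzd7, Fzd8, Lef1, Ror1 and Wnt9a. By limma with Benjamini-Hochberg adjustment over all probes tested, 0 of 47 member probes had an adjusted p under 0.05, as did 0% of all probes. At an unadjusted limma p under 0.05, 14 member probes (29.8%) were lower, against 18.5% of all probes, and 0 were higher, against 3.38% of all probes (21.9% in either direction). Under 75th percentile scaling these counts were 6 lower and 2 higher, against 8.61% and 15.6% of all probes. Under quantile normalization they were again 6 and 2, against 9.38% and 9.46%, and with each array centred on its own median 3 and 2, against 6.64% and 16.2%. Of the 14 lower probes 5 passed the filter only through the wild-type arrays, where they were high (Wnt5a, Fzd8, Dkk2 and 1 probe each of Wnt5b and Lef1), so that their differences describe these arrays and support no count. Among the 34 probes well above background on all 8 arrays 9 were lower, against 16.8% of all probes so filtered. The 4 Tbx5-/+ samples were all lower than the 4 wild-type samples at 4 member probes (8.51%), against 8.98% of all probes, and above them at 0, against 0.744%, and 2 of these 4, Fzd8 and Dkk2, are among those that passed only through the wild-type arrays. The median difference of the member probes was −0.28, which is −0.09 relative to all probes, with a range from −1.53 to 0.67. Of the 47 differences 34 were below 0, but with each array centred on its own median 21 were below 0, so that the sign of many small differences followed the scaling.

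**Figure D1:**
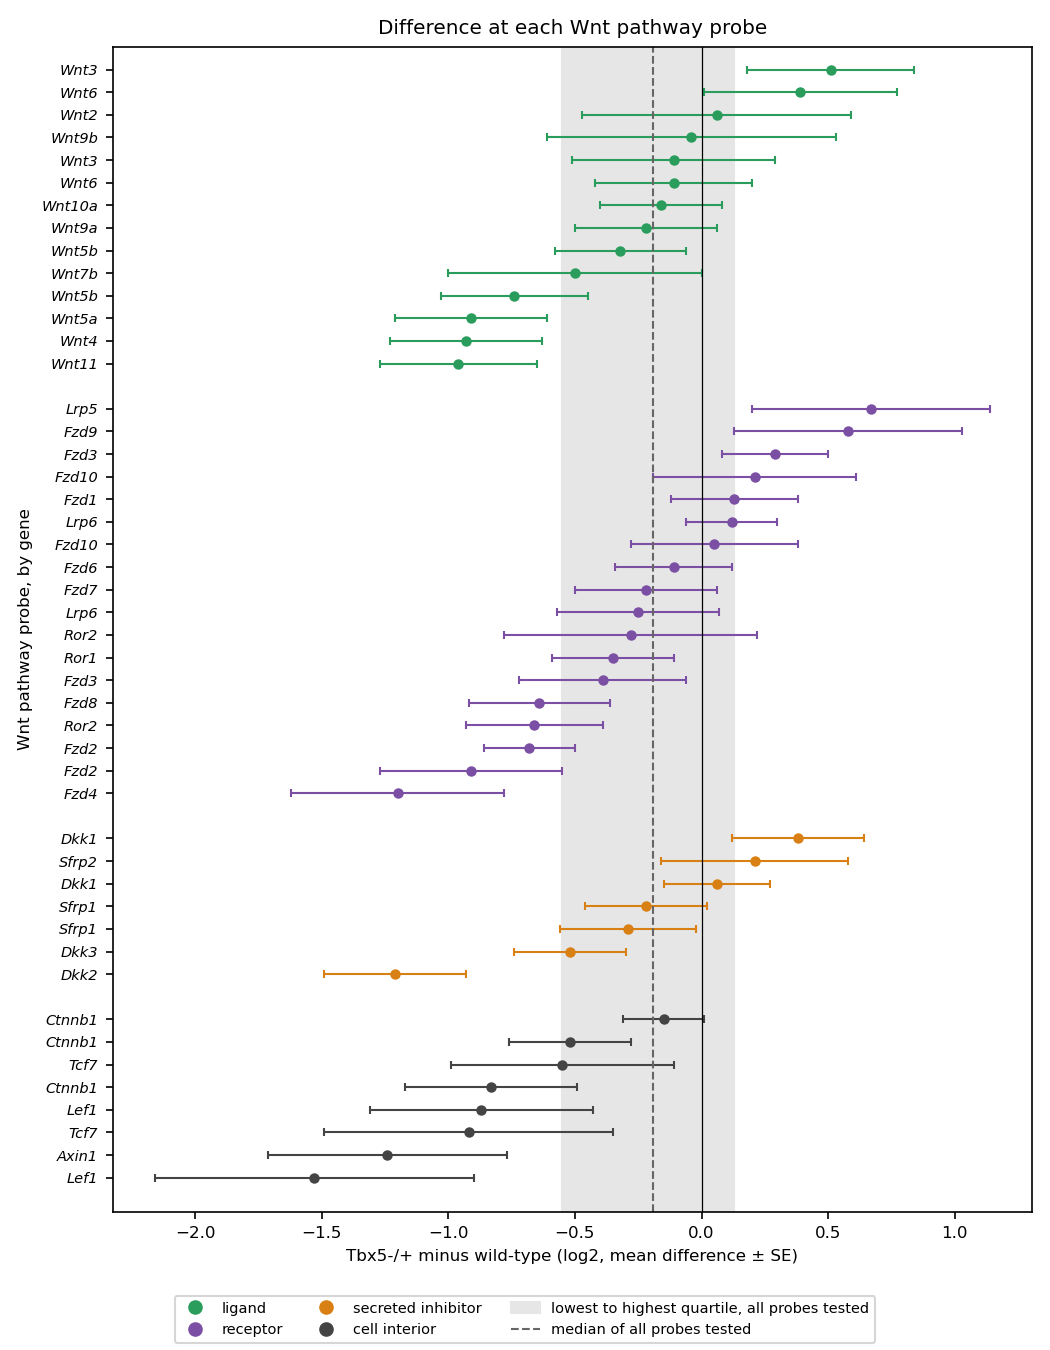
Difference between Tbx5-/+ and wild-type samples (log2, mean of 4 arrays minus mean of 4 arrays, bars ± SE from limma) at each of the 47 tested Wnt pathway probes, sorted within role, with genes that have several probes listed more than once. The dashed line is the median of all probes tested, −0.19, and the shaded band runs from their lowest quartile, −0.55, to their highest, 0.13. All 8 probes of the cell interior lie below 0, and the probes of the other roles lie on both sides of it.

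Among ligands, Wnt11, Wnt4, Wnt5a and Wnt5b were lower in Tbx5-/+ samples at an unadjusted p under 0.05, and no ligand passed the adjusted threshold. In all, 11 of 19 ligand genes were tested, on 14 probes with a median difference of −0.19, the same as that of all probes. Wnt11, a ligand of outflow tract and cardiac progenitor development that often signals without beta-catenin, read 8.83, 9.24, 7.82 and 8.79 in Tbx5-/+ samples 1, 5, 6 and 7 against 9.40, 9.91, 9.30 and 9.93 in their wild-type counterparts. Every Tbx5-/+ value was below every wild-type value, with Tbx5-/+ 6 the lowest. The difference was −0.96 ± 0.31 (SE, n = 4 and 4), or 1.95-fold lower (limma, adjusted p = 0.168, exact permutation p = 0.0286). It was −0.62 on the slide with numbers 1 and 5 and −1.31 on the other. With embryo number as a replicate block Wnt11 passed the threshold (limma, adjusted p = 0.0369), in a fit that called 11.1% of all probes.

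Wnt4, a ligand of kidney and gonad development, read 7.59, 8.71, 7.75 and 8.28 in Tbx5-/+ and 9.19, 9.30, 8.36 and 9.18 in wild-type samples. Its groups overlapped because wild-type 6 was low, below Tbx5-/+ 5. The difference was −0.93 ± 0.30 (limma, adjusted p = 0.172, exact permutation p = 0.0571), and the blocked fit gave an adjusted p of 0.0412. Wnt5a, a ligand of directed cell movement and planar polarity, read 7.10, 6.66, 5.98 and 6.23 against 7.01, 7.55, 7.09 and 7.96. Its probe was well above background on 2 of 4 Tbx5-/+ arrays and on all wild-type arrays, and Tbx5-/+ 1 was as high as the lower wild-type samples. The difference was −0.91 ± 0.30 (limma, adjusted p = 0.172), and without Tbx5-/+ 1 it was −1.11 (limma, adjusted p = 0.0315).

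Wnt5b, a close relative of Wnt5a, had a pair of tested probes. The brighter, nearer the 3′ end, read 10.01, 10.31, 9.34 and 9.93 in Tbx5-/+ and 10.23, 10.52, 9.71 and 10.41 in wild-type samples, with overlapping groups and a difference of −0.32 ± 0.26 (limma, adjusted p = 0.454). The probe nearer the 5′ end, well above background on 2 of 4 Tbx5-/+ arrays and on all wild-type arrays, read 6.97, 7.23, 5.92 and 6.95 against 7.81, 7.59, 7.15 and 7.48. There only Tbx5-/+ 5 reached into the wild-type range, and the difference was −0.74 ± 0.29 (limma, adjusted p = 0.207, exact permutation p = 0.0571). It was not tested where a probe had to be well above background on all 8 arrays, so the place of Wnt5b among the lower ligands rests on a probe that entered through its high group.

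Wnt2, the mesenchymal ligand of the inflow region, showed no mean difference but did not read alike across embryo numbers. It was 12.38, 14.54, 14.77 and 14.57 in Tbx5-/+ samples 1, 5, 6 and 7 against 14.99, 13.54, 13.78 and 13.71 in the wild-type ones. Tbx5-/+ 1 was the lowest of the 8 arrays and wild-type 1 the highest, while at numbers 5, 6 and 7 each Tbx5-/+ value was above each wild-type value. Over all arrays the difference was 0.06 ± 0.53 (limma, adjusted p = 0.954). Without Tbx5-/+ 1 it was 0.62 (limma, adjusted p = 0.189). Without both arrays of number 1, a setting chosen after these values were seen, the Tbx5-/+ mean was 14.62 ± 0.13 and the wild-type mean 13.68 ± 0.12 (SD, n = 3 each), a difference of 0.95 (limma, adjusted p = 0.0166, in a fit that called 15.7% of all probes). An exact permutation test of 3 against 3 arrays gave p = 0.1, the smallest it allows. The slides differed in sign, with −0.80 on the slide with numbers 1 and 5 and 0.92 on the other.

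Some cell type markers, of the pSHF mesenchyme and of the neural tube, also set 1 or both arrays of number 1 apart. Foxf2, a gene of the foregut mesenchyme, read 9.96 in Tbx5-/+ 1 and 11.03 in wild-type 1, below the 12.27 to 13.25 of the other 6 arrays. Aldh1a2, which makes retinoic acid, was 11.61 in Tbx5-/+ 1 and between 13.30 and 14.75 elsewhere. The summed level of the 12 pSHF mesenchyme markers, Wnt2 among them, was 15.19 in Tbx5-/+ 1 and 16.83 to 17.40 in the other Tbx5-/+ samples, against 16.23 to 16.75 in wild-type samples. Each of these 12 markers was well above background on at least 1 array. The summed level of 10 neural tube markers was 14.20 in Tbx5-/+ 1 and 10.81 in wild-type 1, between 12.34 and 13.16 in the other Tbx5-/+ samples and between 12.18 and 14.58 in the other wild-type samples, with Sox1 on no array above background. The part of these cells in the Wnt2 values was not tested.

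The remaining tested ligands had differences from −0.50 to 0.51 and none reached an unadjusted p under 0.05. They were Wnt7b (−0.50), Wnt9a (−0.22), Wnt10a (−0.16), Wnt9b (−0.04), Wnt6 (0.39 and −0.11) and Wnt3 (0.51 and −0.11). The probes of Wnt6 disagreed in sign, as did those of Wnt3, and in both genes the probe nearer the 5′ end gave the lower value. Wnt9b, a ligand of epithelia, read 8.77 in Tbx5-/+ 1 and between 5.81 and 7.47 on the other arrays. Without Tbx5-/+ 1 its difference was −0.68 (limma, adjusted p = 0.0974).

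Wnt3a, a ligand of the dorsal neural tube and tail bud, was well above background on 1 array only and was not tested. It read 9.68 in Tbx5-/+ 1 and between 4.80 and 6.36 on the other 7 arrays. On the same array the neural genes Pax6 at 10.53 and Hes5 at 13.38 had their highest values, above 6.55 to 8.67 and 7.38 to 12.93 elsewhere. Wild-type 5 was next in both of these markers, and there Wnt3a read 5.10. Other neural genes were not highest in Tbx5-/+ 1, where Zic1 read 11.79 against 12.38 in wild-type 5 and Nkx6-1 read 9.64 against 11.42, and Tubb3, at 10.33, was above wild-type 1 alone. The summed level of 5 markers of the roof plate and dorsal neural tube was 12.41 in Tbx5-/+ 1 and 12.87 in wild-type 5, with Lmx1a on no array above background, and ran from 10.25 to 11.85 on the others. Pax6 and Hes5 were named after their values were seen. The part of neural tissue in the Wnt3a value was not tested.

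Of the other ligands not tested, Wnt1, Wnt8a, Wnt8b and Wnt10b were well above background on no array. Wnt2b, a relative of Wnt2, passed on 2 wild-type arrays and on 0 Tbx5-/+ arrays, at 6.65, 5.03, 6.43 and 5.86 in Tbx5-/+ and 5.53, 5.84, 5.58 and 5.75 in wild-type samples. These values lie near background and the groups overlapped. Wnt16 passed on 2 arrays of each group, and Wnt7a on 2 Tbx5-/+ and 3 wild-type arrays.

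**Figure D2:**
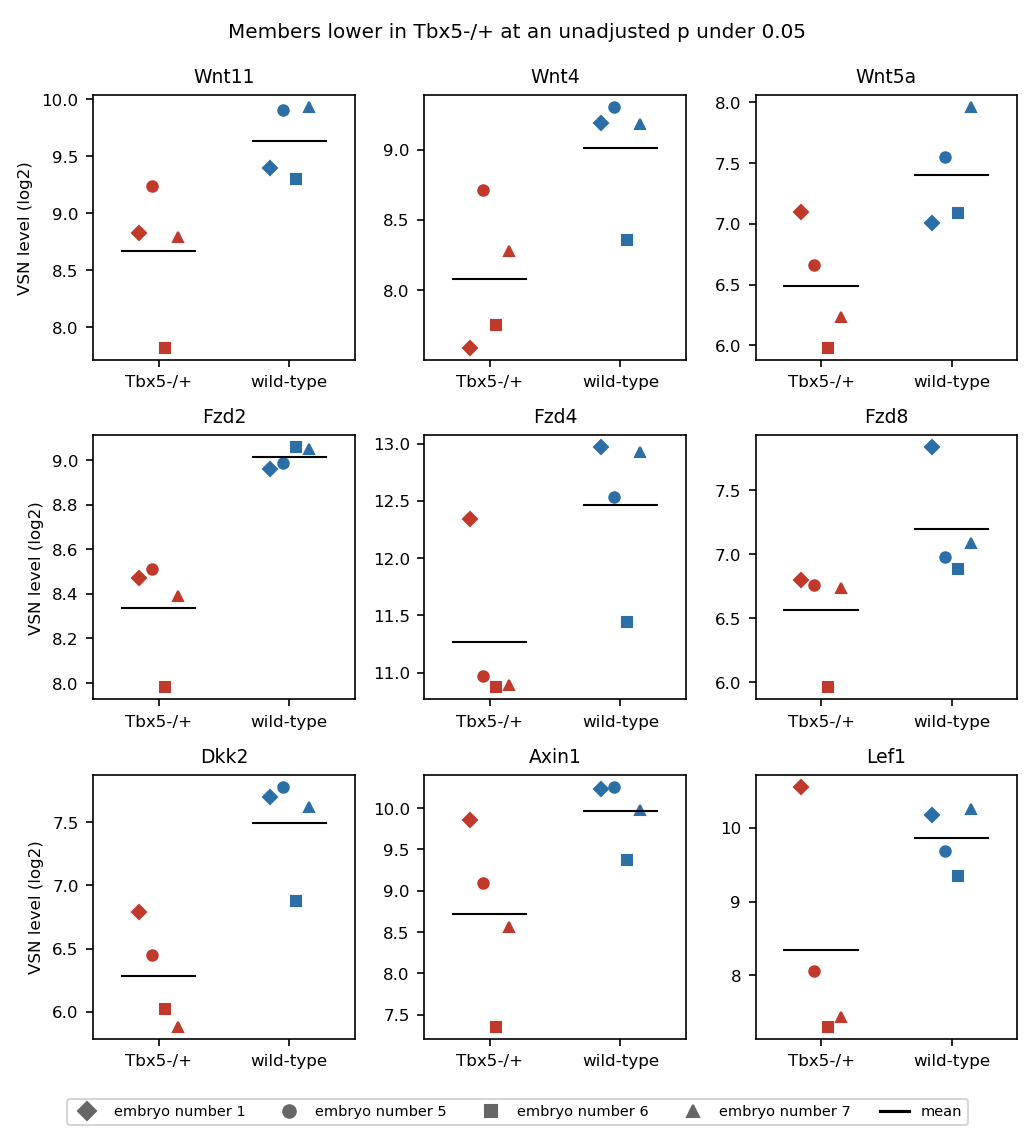
VSN level (log2) in each sample for 9 probes of ligands, receptors, a secreted inhibitor and genes of the cell interior that were lower in Tbx5-/+ samples at an unadjusted limma p under 0.05, each panel with its own axis. Symbols give the embryo number and the line is the mean of 4 arrays. In the panels of Wnt11, Fzd2, Fzd8 and Dkk2 no Tbx5-/+ value reaches a wild-type value, and in the panel of Lef1 Tbx5-/+ 1 at 10.56 lies with the wild-type samples.

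Among receptors, Fzd2, Fzd4, Fzd8 and Ror2 were lower in Tbx5-/+ samples at an unadjusted p under 0.05. Of 14 receptor and coreceptor genes 13 were tested, on 18 probes with a median difference of −0.24, which is −0.05 relative to all probes. Fzd2, a Frizzled receptor that also binds Wnt5a, had a pair of tested probes. The brighter read 13.49, 12.69, 11.59 and 12.41 in Tbx5-/+ and 13.56, 13.43, 13.13 and 13.71 in wild-type samples. There Tbx5-/+ 1 lay inside the wild-type range, and the difference was −0.91 ± 0.36 (limma, adjusted p = 0.205, exact permutation p = 0.0857). The probe nearer the 3′ end read 8.47, 8.51, 7.98 and 8.39 against 8.96, 8.99, 9.06 and 9.05.

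At that probe the wild-type samples lay within 0.05 (SD) of each other and all Tbx5-/+ samples below them. Its difference of −0.68 ± 0.18 (limma, adjusted p = 0.122, exact permutation p = 0.0286) kept its direction on both slides, at −0.48 and −0.87. Without Tbx5-/+ 1 both Fzd2 probes passed the threshold, with −1.22 (limma, adjusted p = 0.0257) and −0.72 (limma, adjusted p = 0.0305). That fit called 19.2% of all probes.

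Fzd4, a Frizzled receptor of vessel growth, read 12.34, 10.97, 10.87 and 10.89 in Tbx5-/+ and 12.97, 12.53, 11.44 and 12.93 in wild-type samples. Numbers 5, 6 and 7 of the Tbx5-/+ group were below all wild-type samples, and Tbx5-/+ 1 was not. The difference was −1.20 ± 0.42, or 2.29-fold lower (limma, adjusted p = 0.189, exact permutation p = 0.0571). It passed the threshold under the replicate block (limma, adjusted p = 0.0402) and without Tbx5-/+ 1 (−1.56, limma, adjusted p = 0.0256). The summed level of 7 endothelial markers, each well above background on every array, lay between 13.83 and 14.06 in Tbx5-/+ and between 14.29 and 14.68 in wild-type samples. On their brightest probes Cdh5 alone was not lower, at 0.14, while Flt1 differed by −0.38 and Kdr by −1.12. Under percentile scaling these differences were 0.52, −0.02 and −0.78. The part of endothelial cells in the Fzd4 values was not tested.

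Fzd8, another Frizzled receptor, read 6.80, 6.76, 5.96 and 6.74 in Tbx5-/+ and 7.84, 6.98, 6.89 and 7.09 in wild-type samples. The groups did not overlap, though the highest Tbx5-/+ value and the lowest wild-type value lay close, and the probe was well above background on 2 of 4 Tbx5-/+ arrays. The difference was −0.64 ± 0.28 (limma, adjusted p = 0.223, exact permutation p = 0.0286), at a probe that passed the filter only through the group where it was high. The other Fzd8 probe was on no Tbx5-/+ array above background and was not tested. Ror2, a receptor tyrosine kinase for Wnt5a, read 7.92, 7.74, 6.88 and 7.15 against 8.42, 8.02, 7.69 and 8.20 on its brighter probe, with Tbx5-/+ 1 and 5 inside the wild-type range. The difference was −0.66 ± 0.27 (limma, adjusted p = 0.213, exact permutation p = 0.0857), and that of its other probe was −0.28 ± 0.50.

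The coreceptor Lrp5 had the highest difference of the 47 tested member probes. It read 10.65, 12.02, 13.11 and 11.81 in Tbx5-/+ and 11.11, 10.59, 11.72 and 11.51 in wild-type samples. Tbx5-/+ 5, 6 and 7 were above every wild-type sample and Tbx5-/+ 1 was low. The difference was 0.67 ± 0.47 (limma, adjusted p = 0.387), and 1.08 without Tbx5-/+ 1 (limma, adjusted p = 0.0675). Lrp6, its partner in the receptor complex, differed by 0.12 ± 0.18 and −0.25 ± 0.32 on its probes.

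Fzd9, a Frizzled receptor of neural tissue, was 10.03 in Tbx5-/+ 1 and between 7.64 and 8.52 on the other arrays. Its difference of 0.58 ± 0.45 (limma, adjusted p = 0.432) was 0.09 without that array. The other receptors had no probe at an unadjusted p under 0.05. They were Fzd1 (0.13), Fzd3 (0.29 and −0.39), Fzd6 (−0.11), Fzd7 (−0.22), Fzd10 (0.21 and 0.05) and Ror1 (−0.35). Fzd5, whose probes passed on 3 wild-type arrays and on 0 Tbx5-/+ arrays, was not tested.

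Among secreted inhibitors, Dkk2 and Dkk3 were lower in Tbx5-/+ samples at an unadjusted p under 0.05. Of 9 genes 5 were tested, on 7 probes with a median difference of −0.22, which is −0.03 relative to all probes. Dkk2, which binds Lrp5 and Lrp6, read 6.79, 6.45, 6.02 and 5.88 in Tbx5-/+ and 7.70, 7.78, 6.88 and 7.62 in wild-type samples. No Tbx5-/+ sample reached the lowest wild-type one, and the probe was well above background on 1 Tbx5-/+ array and on all wild-type arrays. The difference was −1.21 ± 0.28 (limma, adjusted p = 0.0965, exact permutation p = 0.0286). As the probe passed the filter only through the wild-type arrays and was not tested with probes of all 8 arrays, this is a description of a dim probe.

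The Dkk2 difference was −1.12 on the slide with numbers 1 and 5 and −1.30 on the other. It passed the threshold under the replicate block (limma, adjusted p = 0.0336) and without Tbx5-/+ 1 (−1.38, limma, adjusted p = 0.0159). Dkk3, a divergent member of the family, read 7.76, 8.17, 7.45 and 7.75 against 8.54, 8.20, 8.46 and 8.0. Tbx5-/+ 5 was above wild-type 7, so that the groups overlapped, and the difference was −0.52 ± 0.22 (limma, adjusted p = 0.216, exact permutation p = 0.0571).

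Dkk1, the best known inhibitor of Lrp5 and Lrp6, differed by 0.38 ± 0.26 and 0.06 ± 0.21 on its probes. Sfrp1 and Sfrp2, which bind Wnt proteins outside the cell, differed by −0.29 and −0.22 and by 0.21 in turn, and none of these had an unadjusted limma p under 0.05. Sfrp5, a Wnt-binding protein of the foregut endoderm, was not tested because it passed on 2 Tbx5-/+ and 3 wild-type arrays. It read 6.61, 6.42, 6.04 and 6.46 in Tbx5-/+ and 9.46, 6.0, 6.32 and 6.26 in wild-type samples.

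Wild-type 1 alone carried the high Sfrp5 value, and the groups overlapped otherwise. The liver bud gene Apoa1 was 10.10 on that array and between 5.51 and 6.93 on the others, Ttr was 9.47 against 4.95 to 6.88, and the summed level of 11 foregut endoderm markers was 17.54 against 16.39 to 16.99. Of these foregut markers Krt8 was highest on that array at 16.41, but Foxa2 at 13.32 and Sox2 at 8.96 were not. Nkx2-1 was lowest there, at 7.17. Apoa1 and Ttr were named after their values were seen. Apoa2 at 10.34 and a probe of Hnf4a at 8.81 were also highest there, but Alb and Afp did not set this array apart. Alb was 8.05 there against 9.79 in Tbx5-/+ 6 and 9.55 in wild-type 6, and Afp was 16.26 against 16.81 and 16.26 in turn. The summed level of 6 liver bud markers, each above background on at least 1 array, was 16.33 in wild-type 1, 16.83 in Tbx5-/+ 6, 16.29 in wild-type 6 and between 12.27 and 15.27 on the others. The part of these cells in the Sfrp5 value was not tested. Sfrp4 and Wif1 passed on 1 and 3 arrays and Dkk4 on 0, and none of them was tested.

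**Figure D3:**
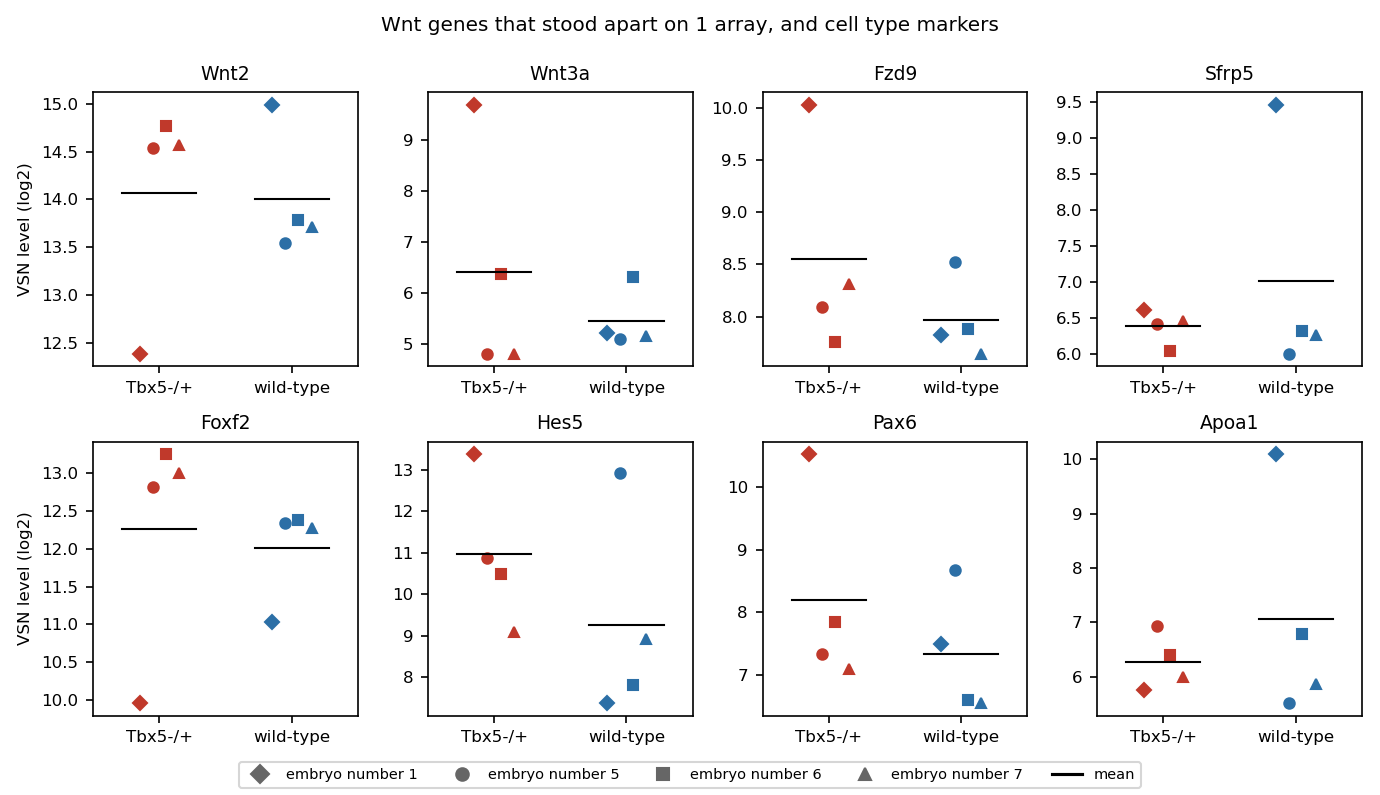
VSN level (log2) per sample of 4 Wnt pathway genes that stood apart on 1 array or on both arrays of embryo number 1 (upper row) and of the cell type markers Foxf2 (mesenchyme), Hes5 and Pax6 (neural) and Apoa1 (liver bud) in the lower row. Symbols give the embryo number, lines are means of 4 arrays, and each panel has its own axis. Tbx5-/+ 1 is high for Wnt3a at 9.68, Fzd9 at 10.03, Hes5 and Pax6 and low for Wnt2 and Foxf2, and wild-type 1 is high for Sfrp5 at 9.46 and Apoa1 at 10.10.

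The genes of the cell interior were lower in Tbx5-/+ samples at each of their 8 tested probes, which belong to 4 genes. Of these probes 3 (37.5%) had an unadjusted p under 0.05, against 18.5% of all probes. Among the 3 is a Lef1 probe that passed the filter only through the wild-type arrays, where it was high, so that it supports no count. The median difference of the 8 probes was −0.85, which is −0.66 relative to all probes, and 7 of 8 were below 0 with each array centred on its own median. With the gap between 5′ and 3′ probes as a covariate, described further on, 5 of the 8 were below 0 and their median relative to all probes was 0.03. Axin1, the scaffold of the complex that marks beta-catenin for destruction, read 9.86, 9.09, 7.35 and 8.56 in Tbx5-/+ and 10.23, 10.26, 9.37 and 9.98 in wild-type samples. Tbx5-/+ 1 was above wild-type 6 and the other Tbx5-/+ samples were below every wild-type sample. The difference was −1.24 ± 0.47, or 2.37-fold lower (limma, adjusted p = 0.199, exact permutation p = 0.0571). It passed the threshold under the replicate block (limma, adjusted p = 0.0368) and without Tbx5-/+ 1 (−1.63, limma, adjusted p = 0.0322).

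Lef1, a DNA-binding partner of beta-catenin and itself a feedback target of the pathway, had a pair of tested probes. The brighter read 12.11, 11.27, 9.60 and 10.89 in Tbx5-/+ and 12.14, 11.83, 11.68 and 11.69 in wild-type samples. The other, which crosses an intron, read 10.56, 8.06, 7.30 and 7.44 against 10.17, 9.69, 9.35 and 10.25. On both, Tbx5-/+ 1 read like the wild-type samples and the other Tbx5-/+ samples were below all of them. The differences were −0.87 ± 0.44 (limma, adjusted p = 0.265) and −1.53 ± 0.63 (limma, adjusted p = 0.214, exact permutation p = 0.143). Without Tbx5-/+ 1 they were −1.25 (limma, adjusted p = 0.0471) and −2.27 (limma, adjusted p = 0.00542), in a fit that called 19.2% of all probes. The probe that crosses an intron passed the filter only through the wild-type arrays, where it was high, so that its differences describe these arrays. Another Lef1 probe was above background on no array.

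Tcf7, a relative of Lef1 with the same partner, read 9.99, 9.17, 7.68 and 8.91 in Tbx5-/+ and 10.11, 9.35, 9.19 and 9.32 in wild-type samples on its brighter probe. Its other probe read 9.38, 8.36, 6.31 and 7.67 against 9.69, 8.61, 8.38 and 8.73. In both, Tbx5-/+ 6 was far the lowest and Tbx5-/+ 1 lay among the wild-type samples. The differences were −0.55 ± 0.44 (limma, adjusted p = 0.441) and −0.92 ± 0.57 (limma, adjusted p = 0.335).

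Ctnnb1, which encodes beta-catenin, had 3 tested probes whose differences ordered along the gene. The most 5′ probe read 10.97, 11.35, 11.51 and 12.03 in Tbx5-/+ and 11.39, 12.54, 12.45 and 12.80 in wild-type samples, a difference of −0.83 ± 0.34 (limma, adjusted p = 0.208, exact permutation p = 0.0857). The next read 13.92, 13.81, 12.95 and 13.55 against 14.31, 14.06, 13.81 and 14.11, a difference of −0.52 ± 0.24 (limma, adjusted p = 0.241). The most 3′ probe read 13.58, 13.72, 13.63 and 13.79 against 13.89, 13.80, 13.73 and 13.91.

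The groups overlapped on all 3 Ctnnb1 probes, and the last had the smallest difference, −0.15 ± 0.16 (limma, adjusted p = 0.578), which was 0.17 with each array centred on its own median. The first passed the threshold under the replicate block (limma, adjusted p = 0.0399). Axin2, a direct feedback target of beta-catenin signalling, was not tested because it passed on 3 arrays of each group. It read 6.72, 7.02, 7.51 and 6.71 in Tbx5-/+ and 6.04, 6.74, 7.60 and 7.16 in wild-type samples, and the groups overlapped throughout.

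The position of a probe along its gene went with the size of the difference. In 10 of the 13 member genes with several tested probes at least 100 bases apart, the most 5′ probe had the lower Tbx5-/+ minus wild-type difference, by a median of −0.37. Over 4320 other genes the most 5′ probe was lower in 68.7%, by a median of −0.22. The gap between 5′ and 3′ probes of these other genes, set against its mean over all arrays, was 0.19, −0.13, −0.32 and −0.20 in Tbx5-/+ samples 1, 5, 6 and 7 and 0.23, 0.10, 0.01 and 0.10 in their wild-type counterparts. The Tbx5-/+ mean was −0.11 ± 0.22 and the wild-type mean 0.11 ± 0.09 (SD, n = 4 each, exact permutation test, two-sided, p = 0.114), with Tbx5-/+ 1 among the wild-type values. Gaps of this kind are known to vary with RNA integrity and with the length of the labelled cRNA, and the part of either in the Wnt pathway values was not tested.

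With the gap as a covariate, a setting added after these values were seen, 5 member probes were lower and 4 higher at an unadjusted limma p under 0.05, against 13.7% and 1.06% of all probes, and 0 had an adjusted p under 0.05. The difference of Dkk2 was then −0.78 (limma, adjusted p = 0.199), that of Wnt11 −0.69 (limma, adjusted p = 0.411) and that of Wnt4 −0.97 (limma, adjusted p = 0.275). That of Fzd4 was −0.39 (limma, adjusted p = 0.634) and that of Axin1 −0.27 (limma, adjusted p = 0.726). The differences of Lef1 were 0.05 and −0.11, those of Tcf7 were 0.37 and 0.35, and the median of the 8 cell interior probes was 0.03 relative to all probes. The lowest of these 8 was a Ctnnb1 probe at −1.29. The 4 higher member probes were those of Wnt9b (1.23) and Fzd9 (1.42) and 1 probe each of Wnt6 (0.96) and Fzd3 (0.51).

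**Figure D4:**
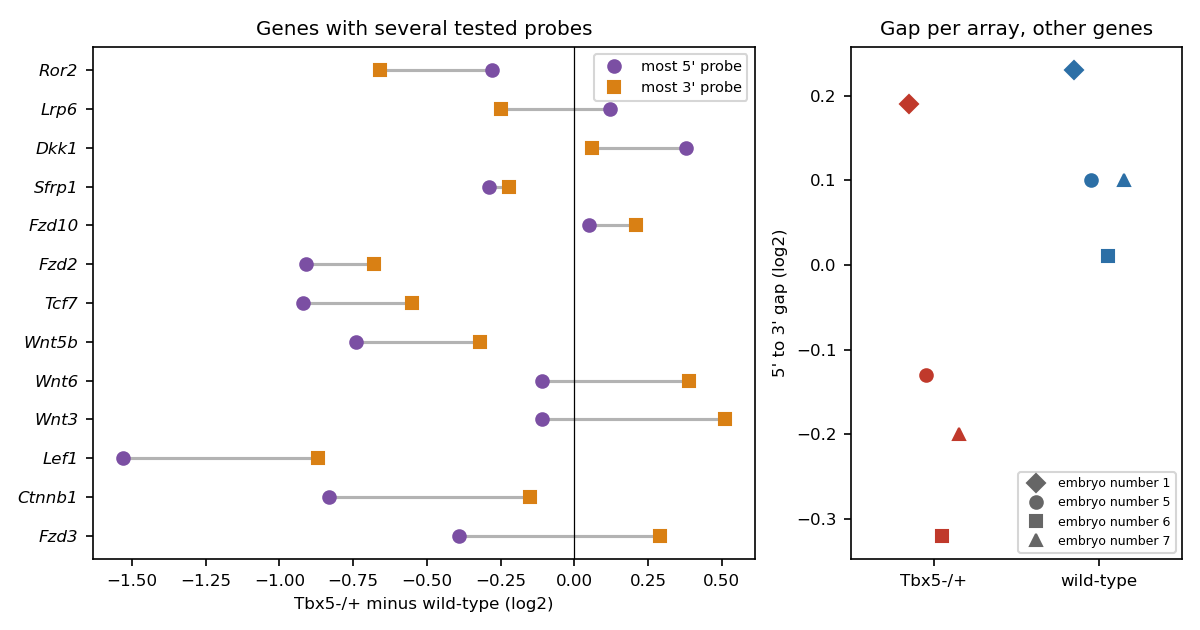
Left, Tbx5-/+ minus wild-type difference (log2) at the most 5′ (circles) and most 3′ (squares) tested probe of the 13 member genes with several tested probes. Right, the gap between 5′ and 3′ probes of 4320 other genes in each sample (log2, relative to its mean over the arrays), with symbols for the embryo number. In 10 of 13 genes the circle lies to the left of the square, and Tbx5-/+ 5, 6 and 7 lie below every wild-type sample in the gap.

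Other genes of the pathway, taken from a list of 57 of which 53 were on the array, were described in the same way. Of 75 tested probes 0 had an adjusted p under 0.05, 19 were lower (25.3%, against 18.5% of all probes) and 4 higher (5.33%, against 3.38%) at an unadjusted limma p under 0.05, and 9 were lower (12%, against 8.98%) and 1 higher (1.33%, against 0.744%) without overlap. Under percentile scaling 12 were lower and 9 higher, against 8.61% and 15.6% of all probes. Under quantile normalization the counts were 14 and 7, against 9.38% and 9.46%, and with centred arrays 11 and 10, against 6.64% and 16.2%. The replicate block called 18 lower and 1 higher, in a fit that called 11.1% of all probes. The fit without Tbx5-/+ 1 called 20 lower and 8 higher, and 19.2% of all probes. The 75 probes include 1 each of Kremen1 and Tcf7l2 that passed the filter only through the wild-type arrays and so supports no count. The median difference of the 75 probes was −0.37, which is −0.18 relative to all probes. Vangl2, a core membrane protein of planar polarity, read 9.94, 8.04, 7.71 and 7.94 in Tbx5-/+ and 10.29, 10.97, 10.08 and 10.92 in wild-type samples, a difference of −2.16 ± 0.47 (limma, adjusted p = 0.0959), and its other tested probes differed by −2.04, −1.01 and −0.52. Celsr1, a cadherin of the same pathway, was the 1 gene higher without overlap, at 12.84 to 13.25 against 12.35 to 12.68 (0.63 ± 0.18, limma, adjusted p = 0.139).

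Bcl9, a coactivator of beta-catenin, read 8.84, 7.29, 7.64 and 7.30 against 9.94, 10.12, 9.29 and 10.27, a difference of −2.14 ± 0.37 (limma, adjusted p = 0.0921). That adjusted p was the smallest of all probes tested and was shared with probes of other genes, such as Nr2f2. The other tested Bcl9 probe differed by −0.74. Dact1, which binds Dishevelled, differed by −0.94 and −1.92, Tcf7l2 by −1.16 on a probe above background on 2 of 4 Tbx5-/+ arrays (0.60 at another probe), the corepressor Tle1 by −0.93 (−0.84 and 0.12 at others) and the R-spondin receptor Lgr5 by −0.86. Under the replicate block these probes passed the threshold for Vangl2 (limma, adjusted p = 0.0348), Bcl9 (limma, adjusted p = 0.0336), Lgr5 (limma, adjusted p = 0.0421) and Celsr1 (limma, adjusted p = 0.0498), and without Tbx5-/+ 1 the adjusted p values by limma were 0.00444, 0.00444, 0.0221 and 0.0269. Kremen1, a Dkk receptor, was well above background on 0 of 4 Tbx5-/+ arrays, entered the test through the wild-type arrays and was at least 2.18-fold higher in wild-type samples (limma, adjusted p = 0.0965), against the lowest signal well above background on each Tbx5-/+ array. The 3 genes higher at an unadjusted p under 0.05 with overlapping groups were Lgr4 (1.00, with −0.01 at another probe), Apc (0.91, with −0.71 and −0.69 at others) and Csnk1a1 (0.53, with −0.70 at another that was also under 0.05).

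Known target genes of beta-catenin signalling, a list of 13 genes of which 9 were tested on 11 probes, had a median difference of −0.18, near that of all probes. Lgr5 alone was lower at an unadjusted limma p under 0.05 (9.09% of the 11 probes, against 18.5% of all) and 0 were higher. Znrf3 and Apcdd1 were higher at that level under each of the 3 other scalings, Znrf3 by 0.97, 0.88 and 0.93 and Apcdd1 by 0.88, 0.63 and 0.85 under percentile scaling, quantile normalization and centring in turn. They make 18.2% of the 11 probes, against 15.6%, 9.46% and 16.2% of all probes in turn. With the gap as a covariate Znrf3 differed by −0.04, Apcdd1 by 0.25 and Rnf43 by −0.20. Without Tbx5-/+ 1, Znrf3 passed the threshold (0.91, limma, adjusted p = 0.0297), as did Lgr5, and Apcdd1 (0.73, limma, adjusted p = 0.0605) and Rnf43 (0.55, limma, adjusted p = 0.109) did not. That fit called 19.2% of all probes. Ccnd1, a cyclin, differed by −0.23 ± 0.21, and the 3 probes of Myc by −0.35, −0.51 and −0.51. Nkd1 and Notum, feedback inhibitors of the pathway, differed by 0.05 ± 0.26 and −0.04 ± 0.21, Rnf43 and Znrf3, which remove Frizzled receptors, by 0.29 ± 0.30 and 0.60 ± 0.32, and Apcdd1 by 0.53 ± 0.27. Sp5 differed by −0.18 ± 0.36 and was 11.64 in Tbx5-/+ 1, above 9.75 to 11.00 on the other arrays.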

How the data were processed

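RNA of pSHF tissue was measured on 8 arrays, 1 per sample. Per the file headers, the authors deposited scanner intensity values from Agilent Feature Extraction 10.5.1.1, on a linear scale, with quality marks. A further table, deposited for 22405 probes, is on the log2 scale after background correction and VSN by the authors.

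Median background was subtracted from the mean signal, 1115 outlier spots were left out, repeated spots (245 probes) were averaged, and VSN was programmed in R 4.3.3 (90% of probes kept, 7 iterations). On every array the values correlated with the deposited values at 0.9999 across probes. Groups were compared with limma 3.58.1, with Benjamini-Hochberg adjustment over 20031 probes and a threshold of 0.05. This replaced the unpaired permutation method of the study. P-values measure the spread between pools. In simulated data for this comparison on 20021 probes, 0% of changes of 1 on the log2 scale, 81% of changes of 2 and 95% of changes of 3 were called. No spot was saturated.

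The labels give both groups the same embryo numbers. Same-numbered arrays deviated together, with correlations of 0.44, 0.40, 0.59 and 0.14, although Tbx5-/+ 7 correlated best with wild-type 6, so that a fit with the number as a block is also given. Alternatives comprised other scalings and filters, the slide as a covariate, and leaving out each array. The accessions of 59 of 67 probes matched RefSeq under the same gene name, 0 under another, and 47 of 47 probes that could be compared lay on the strand of their gene. Values in every array are given for members without overlap, for members with an unadjusted p under 0.05, and for Wnt2, Wnt2b, Axin2, Lef1, Tcf7, Ctnnb1 and Sfrp5. Other arrays with values far from the rest are also named. The members, lists and this rule were chosen with earlier results of these data known.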

Additional observations from a re-analysis of the deposited data

Results flagged for a closer look

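In 12 of 134 groups of 4 arrays, for 67 probes in 2 genotypes, the highest or lowest array lay far from the other 3 by Dixon's test at the 95% level, which chance alone gives in about 1 of 20 groups. Among probes that were tested, Wnt2 was 12.38 in Tbx5-/+ 1 against 14.54 to 14.77 in the other Tbx5-/+ samples, and 14.99 in wild-type 1 against 13.54 to 13.78 in the other wild-type samples. Fzd4 was 12.34 in Tbx5-/+ 1 against 10.87 to 10.97. Fzd8 was 5.96 in Tbx5-/+ 6 against 6.74 to 6.80, and Dkk1 was 8.53 in Tbx5-/+ 7 against 9.07 to 9.10 on 1 of its probes. In wild-type 1 a probe of Fzd3 was 8.59 against 8.03 to 8.13. In wild-type 6 Wnt4 was 8.36 against 9.18 to 9.30, and a probe of Sfrp1 was 13.57 against 14.30 to 14.41. Among probes too dim to be tested, Sfrp5 was 9.46 in wild-type 1 against 6.0 to 6.32. Values near background set the other 3, which were Wnt3a at 6.30 and Wnt8a at 6.78 in wild-type 6, against at most 5.22 and 4.91, and Wif1 at 5.60 in Tbx5-/+ 7 against 6.30 to 6.35.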

How the results depend on the processing

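No member probe was called under another scaling, the deposited values, another filter, the brightest probe per gene or the slide as a covariate. The replicate block, with the embryo number as the block, called 6 member probes (of 2218 in all), and it changed the call of no other member. Leaving out each array in turn gave 0 to 8 called, 6 to 18 lower and 0 to 1 higher at an unadjusted p under 0.05, and 4 to 15 lower and 0 to 2 higher without overlap. In the same fits 0% to 19.2% of all probes were called, and 10.2% to 27.2% were lower and 0.859% to 14.6% higher at that level. The 8 calls came without Tbx5-/+ 1, as did 15 lower without overlap, with 12 without wild-type 6 and 7 without Tbx5-/+ 5, and 2 were higher without overlap without wild-type 1. The lower values of 6 to 8 came without Tbx5-/+ 6 or 7 or wild-type 1, 5 or 7, and 1 was higher without Tbx5-/+ 1 or wild-type 1. Without both arrays of number 1 the counts were 8 called, 3 higher, and 17 lower and 4 higher without overlap. In that fit 15.7% of all probes were called and 15% were higher at an unadjusted p under 0.05. For the counts without overlap in this section no share of all probes is given, so they are not read as a result. Fewer arrays in a group also meet that rule more easily. At an unadjusted p under 0.05, 6 probes were lower and 2 higher under percentile scaling and under quantile normalization, 3 and 2 with centred arrays, and 5 and 4 with the gap as a covariate. The shares of all probes, lower and higher in turn, were 8.61% and 15.6%, 9.38% and 9.46%, 6.64% and 16.2%, and 13.7% and 1.06%. Without overlap 1 was higher under each of the 3 scalings, and 1 was lower under quantile normalization and with centred arrays. With probes well above background on all 8 arrays 9 of 34 were lower (16.8% of all probes), and 2 without overlap. The median relative to all probes lay between −0.29 and 0.13.

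Wnt2 changed sign under quantile normalization (−0.01), on the slide with numbers 1 and 5 (−0.80) and with the gap (−0.69), and ranged from −0.18 to 0.62 as arrays were left out. The most 3′ Ctnnb1 probe was at 0.22 under percentile scaling and 0.17 with centred arrays. With the gap the brighter Lef1 probe was at 0.05 and the Tcf7 probes at 0.37 and 0.35. The cause of these changes was not tested. The array number and the 20 dim probes limit what could be detected, and most changes of 1 on the log2 scale would not have been called.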
